A study of Mus musculus with 24 samples.

Results

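The 6 transporters described here, Slc6a9, Slc1a4, Slc1a5, Slc38a1, Slc38a2 and Slc43a1, carry glycine and other neutral amino acids across the cell membrane. They were taken by gene symbol, and each probe annotated to one of them was followed in every sample, whatever its value. The Illumina Mouse Ref-8 array held 6 such probes for 5 of the 6 genes, among 23978 probes in all. Slc1a5 had 2 probes, Slc6a9, Slc1a4, Slc38a1 and Slc38a2 had 1 each, and Slc43a1 had 0. Of the 6 probes, 5 were detected often enough to be tested, 1 for each gene with a probe, among 11847 tested probes.

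RNA came from primary cortical neurons of wild-type and Atf4 knockout mouse embryos. The groups were 8 untreated wild-type samples, 8 untreated knockout samples, 4 wild-type samples given homocysteate (HCA) and 4 knockout samples given HCA. HCA is an analog of glutamate that blocks cystine uptake and so deprives cells of glutathione. The sources used here do not state the dose, the time of exposure, the strain or the number of embryos behind a sample. The labels do not say whether the samples of a group came from separate cultures or animals, so each p-value measures the spread between these samples, which may be technical in part.

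Neutral amino acid carriers work with different driving forces. SLC6A9, known as GlyT1, takes up glycine with sodium and chloride and sets the glycine level around NMDA receptors in the brain. SLC1A4 and SLC1A5, known as ASCT1 and ASCT2, exchange small neutral amino acids such as alanine, serine and, for SLC1A5, glutamine. SLC38A1 and SLC38A2, known as SNAT1 and SNAT2, concentrate glutamine and alanine inside the cell with sodium, and SLC43A1, known as LAT3, lets large neutral amino acids such as leucine pass down their gradient. ATF4 is a bZIP transcription factor that is translated when amino acids run short or other stresses slow general translation, and genes of amino acid uptake and synthesis are among its known targets.

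The DNA just before the gene start is shown for the only member promoter with a match to an ATF4 response element and for the SNAT2 gene, whose mRNA also moved with HCA. The motif searched was TGATGNAA on both strands, in RefSeq windows of 300 bases (250 before and 50 after each annotated start, GRCm38.p6). It was present in 1304 of 32851 windows, or 3.97%. Both sequences run from 100 bases before to 20 bases after the start on the minus strand, chr11:20332694-20332813 for Slc1a4 and chr15:96699709-96699828 for Slc38a2, and capitals mark the motif.
Slc1a4: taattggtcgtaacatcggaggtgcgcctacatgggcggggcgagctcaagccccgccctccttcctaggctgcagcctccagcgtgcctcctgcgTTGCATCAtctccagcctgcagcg
Slc38a2: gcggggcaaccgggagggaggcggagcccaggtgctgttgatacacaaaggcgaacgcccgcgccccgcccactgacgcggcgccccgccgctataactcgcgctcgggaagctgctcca
The Slc1a4 window held 1 match, which reads TGATGCAA on the opposite strand and begins 4 bases before the annotated start. The 3 windows of Slc6a9 and the single windows of Slc38a2 and Slc43a1 held 0 matches, which says only that these letters are not in those windows. Slc1a5 and Slc38a1 were not searched. Slc6a9 lies on chromosome 4, Slc1a4 on 11, Slc1a5 on 7, Slc43a1 on 2, and Slc38a1 and Slc38a2 lie on chromosome 15, which also carries Atf4.

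The arrays sat on 3 chips of 8. The 8 arrays of chip 1 were untreated, 4 per genotype, and chips 2 and 3 each held 2 arrays of every group, so HCA can be compared with no treatment on chips 2 and 3. The mean raw signal was 745 to 983 on chip 1, 342 to 537 on chip 2 and 296 to 669 on chip 3, and 36.6% to 47.9% of probes were detected on an array. The precision of each value is limited by the number of arrays. As labelled, 0 of 12 knockout arrays detected the Atf4 probe and 12 of 12 wild-type arrays did, though the sources used here do not state which part of the gene it reads. Wild-type untreated replicate 2 and wild-type HCA replicate 1 had the largest residual spread over all probes. Their interquartile ranges were 0.320 and 0.274, against 0.17 for the lowest array. The HCA array was close to the next one, wild-type untreated replicate 6, at 0.272. Without the 2 arrays of largest spread, each of the 25 member tests kept its direction and its side of the threshold. The neuronal markers Tubb3 and Map2 were detected on all arrays.

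**Figure D1:**
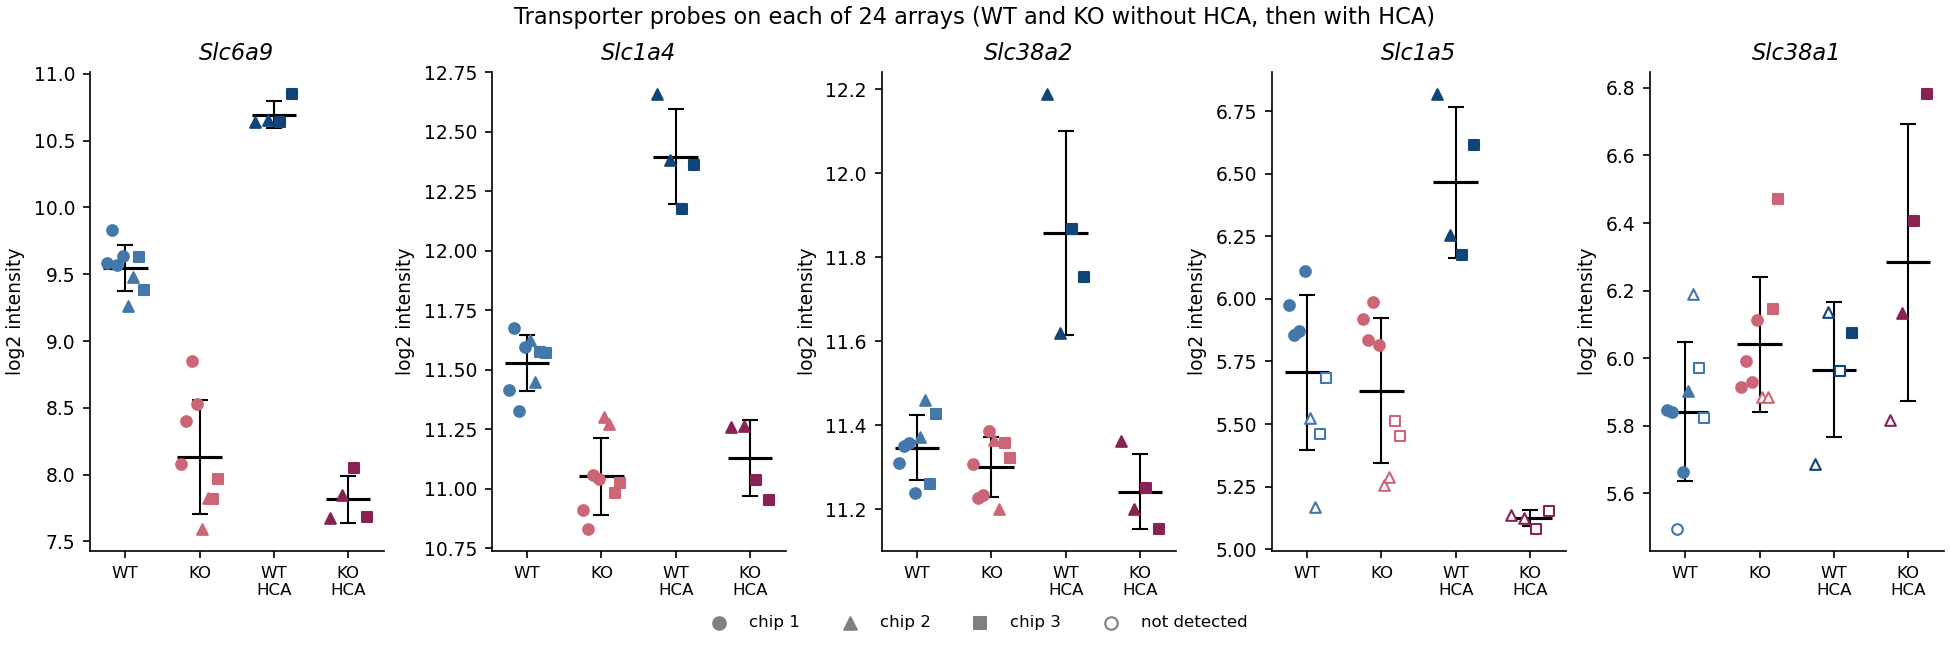
Normalized log2 intensity of the 5 tested transporter probes on each of 24 arrays, by genotype and treatment (WT wild type, KO Atf4 knockout). Marker shape gives the chip, open markers are arrays that did not detect the probe, lines are group means and bars are ±1 SD (n = 8 untreated, n = 4 with HCA). For Slc6a9, Slc1a4, Slc38a2 and Slc1a5 the 4 wild-type HCA arrays lie above every other array.

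Without HCA, 2 of the 5 tested transporters were lower in knockout neurons, Slc6a9 and Slc1a4, and 0 were higher. Across all tested probes 10.3% were called, 5.47% lower and 4.81% higher, at a Benjamini-Hochberg adjusted p under 0.05 in limma, the rule for every call below. With HCA, 4 of 5 were lower in knockout (Slc6a9, Slc1a4, Slc1a5 and Slc38a2), against 17.9% of probes called, 8.95% lower and 9% higher. HCA raised the same 4 transporters in wild-type neurons, against 1.1% of probes called, 0.701% raised and 0.397% lowered. In knockout neurons 0 of 5 responded to HCA, and 6 probes of 11847 did, or 0.0506% (0.0422% lowered and 0.00844% raised). At an unadjusted p under 0.05 in limma 1 of the 5 passed, Slc1a5, where 959 of all probes did, or 8.09%. The knockout response minus the wild-type response was below 0 for 4 of 5, against 0.43% of probes called, 0.422% below 0 and 0.00844% above it. The comparisons share arrays, and so part of their error.

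The median member difference on the log2 scale was -0.07 without HCA and -1.27 with HCA for knockout minus wild type, against 0.02 and 0.03 over all tested probes. The median HCA response of the members was 0.81 in wild type and -0.08 in knockout, against -0.0046 and 0.0076 over all probes. Median centring in place of quantile normalization left fewer calls over all probes and shifted their direction. Without HCA it left 40 higher and 126 lower in knockout (against 570 and 648), with HCA 28 and 411 (against 1066 and 1060), and for the wild-type response 19 higher and 0 lower (against 83 and 47). With it, 1 member was called without HCA, 4 with HCA, 3 for the wild-type response and 2 for the difference in response.

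**Figure D2:**
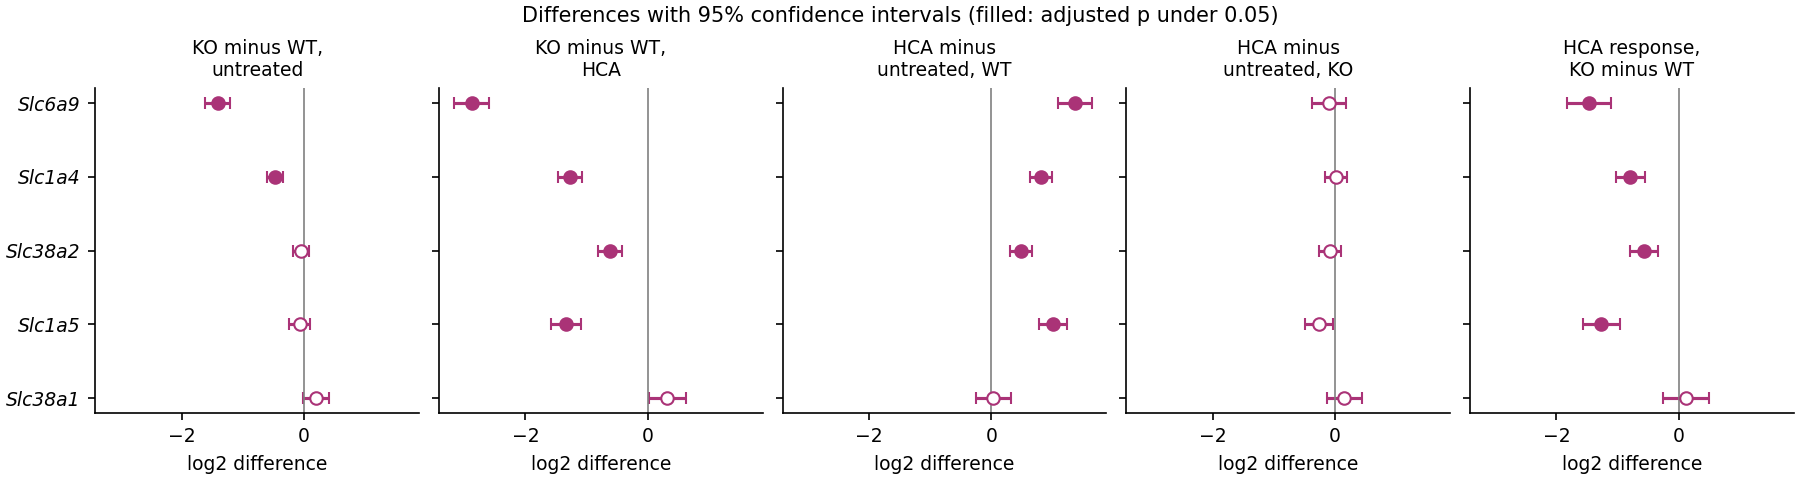
Fitted log2 differences of the 5 tested transporters in each of 5 comparisons, with 95% confidence intervals from limma. Filled points have an adjusted p under 0.05. Slc6a9, Slc1a4, Slc38a2 and Slc1a5 are filled for the genotype difference with HCA, the wild-type response and the difference between responses, and 0 of 5 are filled for the knockout response.

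Slc6a9, the glycine transporter GlyT1, showed the largest genotype difference of the 5. Its log2 intensity in untreated wild-type neurons ran from 9.26 to 9.83 with a median of 9.58, and in untreated knockout neurons from 7.59 to 8.85 with a median of 8.02. With HCA the 4 wild-type arrays read 10.64, 10.66, 10.64 and 10.85 and the 4 knockout arrays 7.67, 7.85, 8.05 and 7.68. Every wild-type array was above every knockout array, the wild-type HCA arrays were above all untreated ones, and the 2 knockout groups overlapped. All 24 arrays detected the probe.

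In knockout neurons Slc6a9 was 2.67-fold lower without HCA (log2 difference -1.41 ± 0.10, SE, n = 8 per group, adjusted p = 2.21e-09, limma). With HCA it was 7.37-fold lower (-2.88 ± 0.14, n = 4 per group, adjusted p = 2.19e-12, limma). HCA raised it 2.58-fold in wild type (1.37 ± 0.13, adjusted p = 1.57e-06, limma). In knockout the difference between HCA and untreated arrays was -0.10, with a 95% interval from -0.37 to 0.18. The responses of the 2 genotypes differed by -1.47 ± 0.17 (adjusted p = 3.87e-05, limma). In a fit of chips 2 and 3 only, they differed by -1.24 (adjusted p = 0.000908, limma), and the knockout response was 0.01. Group means in order were 10.70 ± 0.10 (SD, n = 4) in wild type with HCA, 9.55 ± 0.17 (SD, n = 8) in untreated wild type, 8.13 ± 0.42 (SD, n = 8) in untreated knockout and 7.81 ± 0.18 (SD, n = 4) in knockout with HCA, and the last 2 do not differ beyond their spread.

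The chips did not give one value for untreated knockout neurons. The 4 knockout arrays of chip 1 read 8.08 to 8.85, and those of chips 2 and 3 read 7.59 to 7.96, while wild-type means were 9.66, 9.37 and 9.51 on chips 1, 2 and 3. The knockout minus wild-type difference of Slc6a9 was -1.19 on chip 1, -1.66 on chip 2 and -1.62 on chip 3. A test of chip by genotype in untreated arrays called 0 of 5 transporters and 1.41% of all probes in limma, with 1 of the 5 at an unadjusted p under 0.05, Slc38a1. The level of the Y-linked gene Eif2s3y, a mark of male embryos, also split along chips in the untreated knockout, at 4.81 to 4.95 on chip 1, 9.55 to 9.73 on chip 2 and 8.93 to 9.00 on chip 3. In knockout with HCA, on chips 2 and 3, it was 8.65 to 9.78. The wild-type groups held low and high arrays on every chip, from 4.74 to 9.01 without HCA and from 4.70 to 9.99 with it. With the Eif2s3y level as a term, all 25 member tests kept their direction and their side of the threshold. Low levels in the untreated knockout were on chip 1 only, so sex and chip cannot be told apart there.

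Slc1a4, which encodes the alanine, serine, cysteine and threonine exchanger ASCT1, differed in the same comparisons at a smaller size. Untreated wild-type arrays ran from 11.33 to 11.67 with a median of 11.57, and untreated knockout arrays from 10.83 to 11.30 with a median of 11.03. With HCA wild-type arrays read 12.66, 12.38, 12.18 and 12.36, and knockout arrays 11.26, 11.27, 11.04 and 10.95. Genotypes did not overlap with or without HCA, although the gap between the lowest untreated wild-type array and the highest untreated knockout array was narrow. Group means in order were 12.40 ± 0.20 (SD, n = 4) in wild type with HCA, 11.53 ± 0.12 (SD, n = 8) in untreated wild type, 11.13 ± 0.16 (SD, n = 4) in knockout with HCA and 11.05 ± 0.16 (SD, n = 8) in untreated knockout. The 2 knockout groups overlapped, and their means do not differ beyond their spread.

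The knockout level of Slc1a4 was 1.39-fold below wild type without HCA (-0.48 ± 0.07, adjusted p = 0.000109, limma) and 2.41-fold below it with HCA (-1.27 ± 0.09, adjusted p = 3.53e-09, limma). HCA raised Slc1a4 1.75-fold in wild type (0.81 ± 0.09, adjusted p = 9.12e-06, limma), and the knockout differed from its untreated level by 0.02 (95% interval -0.16 to 0.20). The difference between the responses was -0.79 ± 0.11 (adjusted p = 0.000525, limma). Its untreated genotype difference was -0.54, -0.25 and -0.57 on chips 1, 2 and 3, and under median centring it was -0.40 with an adjusted p of 0.119 in limma. Under that centring the difference between responses was -0.92, with an adjusted p of 0.0798.

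Slc1a5 encodes ASCT2, a glutamine exchanger, and was near the detection limit. Its tested probe was detected on 4 of 8 untreated arrays of each genotype, all of them on chip 1, on 4 of 4 wild-type HCA arrays and on 0 of 4 knockout HCA arrays. Untreated wild-type arrays ran from 5.17 to 6.11 (median 5.77) and untreated knockout arrays from 5.25 to 5.99 (median 5.67), and these overlapped. With HCA wild-type arrays read 6.82, 6.25, 6.18 and 6.61, and knockout arrays 5.14, 5.12, 5.08 and 5.15. The wild-type HCA arrays were above all others.

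With HCA, Slc1a5 was lower in knockout neurons (fitted log2 difference -1.34 ± 0.12, n = 4 per group, adjusted p = 8.40e-08, limma). Since 0 of 4 knockout arrays detected it, the measured statement is that it was at least 1.22-fold lower. This sets the mean of the wild-type arrays, 6.47, against the dimmest probe detected on each knockout array, whose mean was 6.18, where the probe itself read 5.12. HCA raised it in wild type (1.01 ± 0.11, adjusted p = 9.12e-06, limma). On chips 2 and 3, where 0 of 4 untreated wild-type arrays detected it, the rise was at least 1.31-fold, from a bound of 6.08. Without HCA the genotype difference was -0.07 with an interval from -0.25 to 0.10.

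In knockout neurons Slc1a5 differed by -0.26 between HCA and untreated arrays (95% interval -0.49 to -0.03, unadjusted p = 0.0306, adjusted p = 0.562, limma). No knockout array of chips 2 and 3 detected the probe, so no fold can be given. The responses differed by -1.27 ± 0.15 (adjusted p = 2.87e-05, limma). The size of these differences depended on the background correction: with HCA the genotype difference was -0.46 under limma's own background estimate, -0.59 in the deposited values without correction and -0.85 with an offset of 50, all past the threshold. The wild-type response was 0.37, 0.44 and 0.67 under the same settings, and the difference in response -0.44, -0.56 and -0.80.

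A second Slc1a5 probe was detected on 1 of 24 arrays, untreated knockout replicate 3, and was not tested. Its group means lay between 4.96 and 5.26, and its wild-type HCA arrays (5.00 to 5.16) overlapped the untreated ones (4.63 to 5.56). The rise with HCA seen with the first probe was therefore not measurable with the second.

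Slc38a2 encodes SNAT2, a sodium-coupled carrier that cells are known to induce when amino acids are scarce. Every array detected its probe. Untreated wild-type arrays ran from 11.24 to 11.46 (median 11.35) and untreated knockout arrays from 11.20 to 11.39 (median 11.32), so the genotypes overlapped. With HCA wild-type arrays read 12.19, 11.62, 11.87 and 11.75, and knockout arrays 11.36, 11.20, 11.25 and 11.15. The wild-type HCA arrays were above all others, and the 3 other groups overlapped one another.

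HCA raised Slc38a2 1.40-fold in wild-type neurons (0.49 ± 0.09, adjusted p = 0.00307, limma). In knockout the difference was -0.08, with an interval from -0.26 to 0.10. Knockout neurons with HCA were 1.53-fold below wild type (-0.62 ± 0.09, adjusted p = 0.000112, limma), whereas without HCA the difference was -0.05 (interval -0.18 to 0.09). The wild-type response missed the threshold under median centring (0.53, adjusted p = 0.775, limma) and in a fit of the 2 wild-type groups alone (0.48, adjusted p = 0.0985).

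The responses of Slc38a2 differed by -0.57 ± 0.11 (adjusted p = 0.0161, limma), the call closest to the threshold. It was lost without knockout HCA replicate 2 (adjusted p = 0.0577) or replicate 4 (0.0519), with replicate number as a block (0.0527), on chips 2 and 3 only (-0.55, 0.303) and under median centring (-0.69, 0.447). Wild-type HCA replicate 1 had the highest Slc38a2, Slc1a4 and Slc1a5 values of its group and is one of the 2 arrays with the largest residual spread. Leaving it out changed no call of these genes.

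Slc38a1, the paralog that encodes SNAT1, did not follow the others. Its probe was dim and detected on 14 of 24 arrays: 4 of 8 untreated wild-type, 6 of 8 untreated knockout, 1 of 4 wild-type HCA and 3 of 4 knockout HCA arrays. Untreated wild-type arrays ran from 5.49 to 6.19 (median 5.84) and untreated knockout arrays from 5.88 to 6.47 (median 5.96). With HCA the wild-type arrays read 5.69, 6.14, 5.96 and 6.08, and the knockout arrays 5.82, 6.13, 6.41 and 6.78. All 4 groups overlapped. Their means were 6.28 in knockout with HCA, 6.04 in untreated knockout, 5.97 in wild type with HCA and 5.84 in untreated wild type. No comparison of them passed the adjusted threshold in the main fit.

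The Slc38a1 genotype difference was 0.20 without HCA (interval -0.01 to 0.41, adjusted p = 0.231, limma) and 0.32 with HCA (0.02 to 0.62, adjusted p = 0.139). It passed the threshold with HCA only when knockout HCA replicate 1 was left out (0.44, adjusted p = 0.0456). By chip, the untreated difference was 0.27, -0.16 and 0.41 on chips 1, 2 and 3, so its direction was not the same on all chips. The response to HCA was 0.03 in wild type and 0.15 in knockout, with intervals from -0.25 to 0.32 and from -0.13 to 0.43. Slc43a1, the LAT3 gene, had no probe and was not analysed here.

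**Figure D3:**
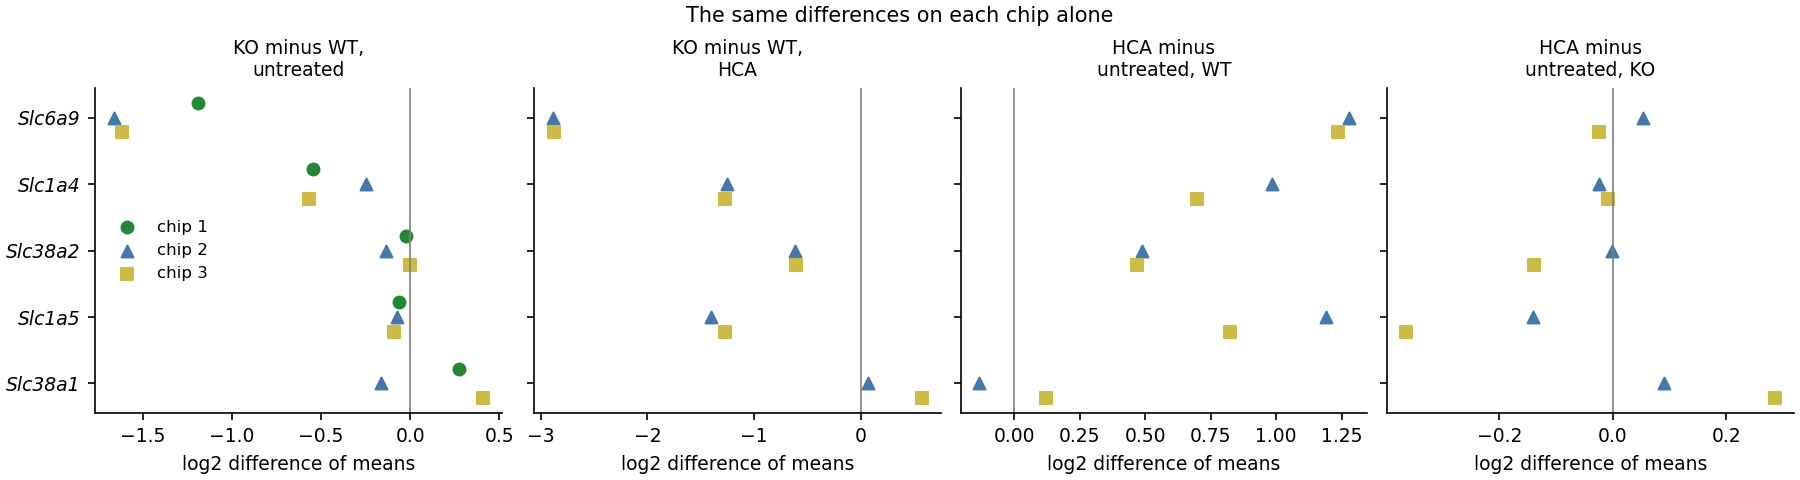
Log2 differences of group means for the 5 tested transporters computed within each chip (4 arrays per genotype on chip 1, 2 per group on chips 2 and 3). Chip 1 holds no HCA array and appears only in the panel for untreated arrays. Slc6a9, Slc1a4, Slc1a5 and Slc38a2 lie on the same side of 0 on chips 2 and 3 in the panels for the genotype difference with HCA and the wild-type response.

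Within chips, the 4 transporters that responded had the same direction on both chips that hold HCA arrays. They were called from these same arrays, so the shared direction is no separate test of the calls. Values were close for the genotype difference with HCA, and less so for the wild-type response of Slc1a4 and Slc1a5. With HCA, knockout minus wild type was -2.89 and -2.88 for Slc6a9, -1.26 and -1.28 for Slc1a4, -1.41 and -1.28 for Slc1a5 and -0.62 and -0.61 for Slc38a2 on chips 2 and 3. The wild-type response was 1.28 and 1.24 for Slc6a9, 0.98 and 0.70 for Slc1a4, 1.19 and 0.82 for Slc1a5 and 0.49 and 0.47 for Slc38a2. With 2 arrays per group on a chip, 0 of 5 transporters passed the adjusted threshold for the wild-type response on either chip, where 2 and 3 of all probes did. For the genotype difference with HCA, 3 members passed on each chip alone, where 311 and 325 of all probes did. Slc38a2 did not pass there (adjusted p = 0.161 on chip 2 and 0.0515 on chip 3, limma).

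Across the 24 arrays, after centring each chip, Slc6a9 and Slc1a4 were the most alike of the members (Pearson r = 0.95), followed by Slc1a4 with Slc1a5 (0.89) and Slc1a5 with Slc38a2 (0.89). Slc38a1 had negative coefficients with the other 4, from -0.49 to -0.41. Among 8754 other genes, Slc6a9 was most like Eif4ebp1, a translation repressor (0.99), Shmt2, the mitochondrial enzyme that makes glycine from serine (0.98), and Slc7a5, the large neutral amino acid transporter LAT1 (0.98). Slc1a4 was most like Mthfd2, a mitochondrial folate enzyme (0.97), Vegfa, an angiogenic factor (0.96), and Eif4ebp1 (0.95). Slc1a5 was most like Ankzf1 (0.93), Hk2, a hexokinase (0.91), and Vegfa (0.91), and Slc38a2 was most like Vegfa (0.90), Hk2 (0.89) and Slc1a5 (0.89). The closest genes to Slc38a1 were less alike: Nln, a peptidase (0.73), Gbx2, a homeobox factor (0.71), and Thap2 (0.70). These coefficients describe arrays that share the group differences given above.

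The carriers of the SLC7 and SLC3 families, which include LAT1, its heavy chain and the cationic amino acid transporters, gave 9 tested genes. Without HCA 3 were lower in knockout and 1 was higher, and with HCA 3 were lower and 0 higher. HCA raised 3 in wild type and changed 0 in knockout. The 3 were the same in each comparison: Slc7a3, a cationic amino acid transporter (-3.24 without HCA, -4.14 with HCA, response 1.10), Slc7a5 (-1.51, -2.93 and 1.07) and Slc3a2, the heavy chain (-0.70, -1.56 and 0.73). Slc7a6 was the one higher without HCA (0.21, adjusted p = 0.0402, limma). For the knockout response 1 gene passed at an unadjusted p under 0.05 in limma, Slc7a5, which was lower with HCA (-0.36). Under median centring 3 were lower and 0 higher without HCA, 3 were lower with HCA, and 2 were raised in wild type. The difference in response then passed for 1 gene. The HCA response was smaller in knockout for Slc7a5 (-1.42) and Slc3a2 (-0.86), and for Slc7a3 the difference was -0.91 with an adjusted p of 0.0678. The median difference over the 9 was -0.04 without HCA and -0.01 with it, since the other genes of the list lay near 0.

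Of the enzymes that make or use glycine, serine and glutamine, 10 were tested. Lower in knockout without HCA were 4: Asns, asparagine synthetase (-1.12), Psat1 and Phgdh, which act in serine synthesis (-1.18 and -1.15), and Shmt2 (-0.92). With HCA 6 were lower, these 4 (from -2.63 to -1.76), Gcat (-0.51) and Alas1 (-0.23, adjusted p = 0.0499, limma). HCA raised 3 in wild type, Shmt2 (0.86), Psat1 (0.88) and Asns (0.79), while Phgdh reached 1.00 with an adjusted p of 0.0527. HCA changed 0 of the 10 in knockout, with 2 at an unadjusted p under 0.05. Median centring left 4 lower without HCA, 4 lower with HCA and 1 raised in wild type, and with limma's own background added these counts were 1, 4 and 0. Gcat and Alas1 took a value above 0 with HCA under median centring combined with limma's own background (0.0025 and 0.25). The glycine-cleavage enzyme Gldc (-0.05 without HCA and 0.02 with it) and Shmt1, the cytosolic form of Shmt2 (-0.16 and -0.21), did not pass in either. Among the 6 other tested SLC38 and SLC43 carriers, 1 was lower without HCA, Slc43a3 (-0.51, adjusted p = 0.0315, limma). In the other comparisons 0 passed. At an unadjusted p under 0.05 in limma 1 did for the genotype difference with HCA, where 31.3% of all probes did, and 0 in the rest. Under median centring 0 of the 6 passed without HCA.

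**Figure D4:**
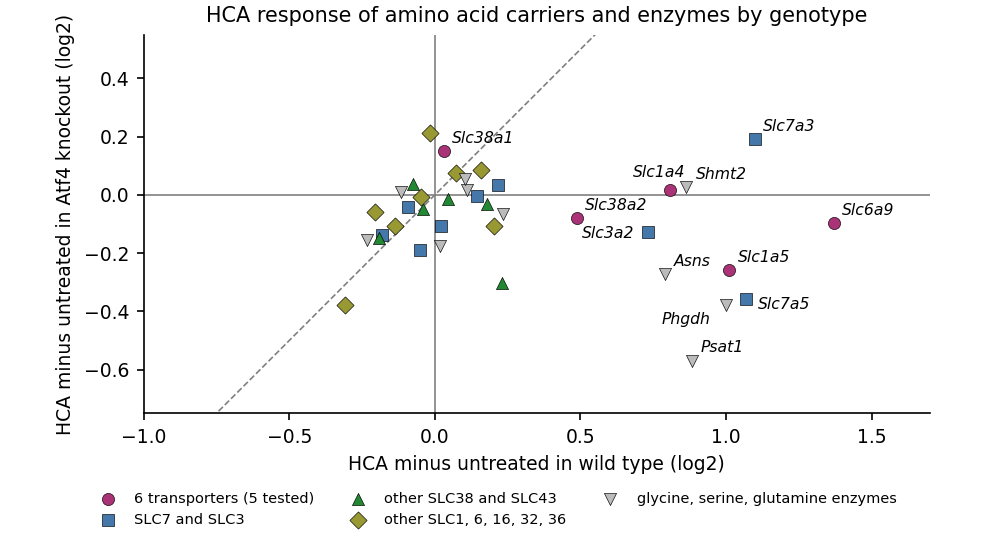
Fitted HCA response (HCA minus untreated, log2) in wild type on the horizontal axis and in Atf4 knockout on the vertical axis, for tested amino acid carriers and enzymes by list. The dashed line marks equal responses. Slc6a9 (1.37 and -0.10), Slc1a5 (1.01 and -0.26), Slc1a4 (0.81 and 0.02) and Slc38a2 (0.49 and -0.08) lie right of the line and near or below 0 in the knockout, and Slc38a1 lies near the origin.

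Markers of other cells moved with genotype in these cultures. In bulk RNA, fewer cells of a type and less RNA per cell cannot be told apart. All 4 tested astrocyte markers were lower in knockout without HCA (Aqp4 -1.22, Aldh1l1 -0.67, Gja1 -0.45 and Slc1a3 -0.43) and with HCA, and 0 of 4 passed for HCA in either genotype (1 in wild type and 2 in knockout at an unadjusted p under 0.05, limma). The log2 of their summed intensity was 12.04 to 12.45 in untreated wild type, 11.40 to 12.33 in untreated knockout, 11.97 to 12.35 in wild type with HCA and 11.18 to 11.45 in knockout with HCA. All 4 markers of dividing cells were lower in knockout with and without HCA, and of 5 progenitor markers 3 were lower without HCA and 2 with it. Of 6 microglial markers 3 were lower without HCA and 4 with it, and of 3 markers of meninges and fibroblasts 1 and 2. Under median centring these counts without HCA were 2 for astrocytes, 1 for dividing cells, 3 for progenitors, 0 for microglia and 1 for meninges, and with HCA 3, 2, 1, 3 and 2. With limma's own background added, each was 0 without HCA, where 17 of all probes were called. With HCA they were then 2 for microglia and 0 for each other list, where 84 of all probes were called. The single tested gene of endothelium and pericytes, Pdgfrb, was lower with HCA (-1.11) and did not pass without it (-0.32).

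The dividing-cell sum was 11.18 to 11.69 in untreated wild type, 10.26 to 11.41 in untreated knockout, 11.08 to 11.22 in wild type with HCA and 10.12 to 10.39 in knockout with HCA. In the same order of groups, progenitor sums were 10.03 to 10.93, 9.38 to 10.29, 10.04 to 10.23 and 9.39 to 9.68, and microglial sums 8.72 to 9.72, 7.93 to 9.37, 9.13 to 9.62 and 8.02 to 8.63. Gfap, Pax6 and Pecam1, defining markers of astrocytes, progenitors and endothelium, were detected on 0 arrays, while Aqp4 and Sox2 were detected on all. Of 6 neuronal markers, 1 was higher in knockout without HCA, Nefm (0.55). With HCA Nefm (0.73) and Slc17a6 (0.49) were higher and Tubb3 was lower (-0.41, but 0.12 under median centring combined with limma's own background). Under median centring alone 1 neuronal marker was higher without HCA and 0 passed with it. The part of these cell types in the genotype differences of Slc6a9, Slc1a4, Slc1a5 and Slc38a2 was not tested. For the HCA response of wild-type neurons, 0 of the 29 tested markers of the 7 lists passed in limma and 6 did at an unadjusted p under 0.05, where 1533 of all 11847 probes did, or 12.9%. The transporters gave 4 of 5 on both counts, and the part of cell types in their HCA response was not tested.

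**Figure D5:**
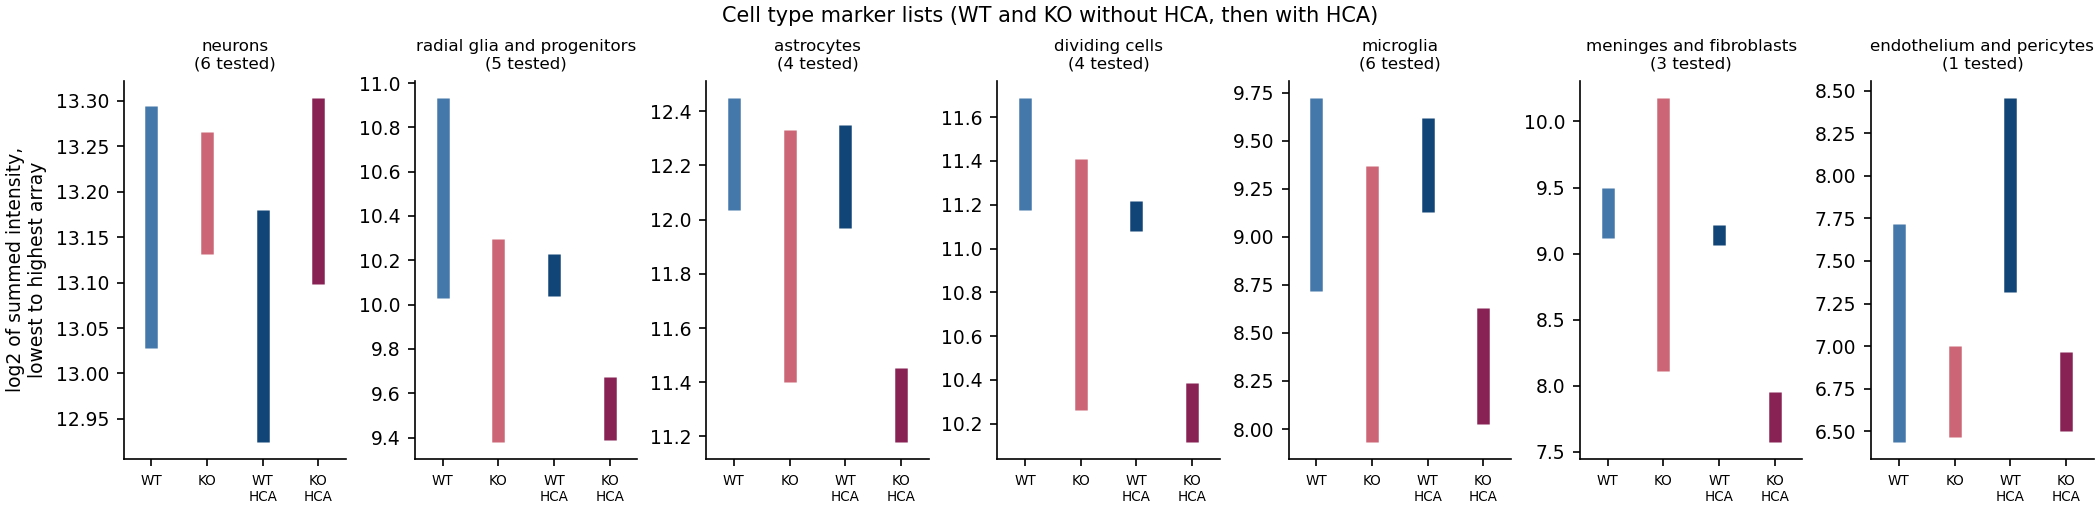
Range over arrays of the log2 summed intensity of tested marker genes for 7 cell types, by group (bars run from the lowest to the highest array). With HCA, the knockout astrocyte range of 11.18 to 11.45 lies below the wild-type range of 11.97 to 12.35. The neuronal sums of the 2 genotypes overlap, with and without HCA.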

How the data were processed

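Gene expression was measured on 24 arrays, and groups, replicate numbers and chips were read from the labels. Per the file headers, BeadStudio 1.5.1.3 gave each probe a mean intensity without normalization and a detection score, which rises with the signal and was read as 1 minus the p of detection. The authors also deposited log2 values, made with limma per the submitters' processing notes, which quantile normalization of the raw log2 signals returned. Of the probes, 20919 had 1 gene symbol, 3063 had none and 1 had several and was left unnamed.

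Signals were background-corrected by normexp with the negative-control mean and SD read from detection quantiles of each array, and an offset of 16. This departs from limma's own estimate, which gave an SD of 214 to 302 on chip 1 and 240 on 1 other array against 15.4 to 26.6 on the remaining 15, where the quantiles gave 13.8 to 22.9 on all arrays. After quantile normalization, probes with a detection p under 0.05 on 4 or more arrays were fitted with lmFit and eBayes of limma 3.58.1 in R 4.3.3, with terms for group and chip, and p was adjusted by Benjamini-Hochberg over 11847 probes. There were 18 residual and 3.47 prior degrees of freedom. The log2 differences shrink for dim probes because of the offset. The fit was tested on simulated data.

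A probe not detected in a whole group has a bound, set against the dimmest detected probe of each array. Named genes were all members, up to 4 genes of each further list by p, and the 3 genes most like each member. Others were named after their values were seen. Members and lists were chosen with earlier results of these data known. Alternatives covered background, normalization, detection filter, probes per gene, chip, groups in the fit, replicate block, array weights and leaving out each array. Those added after seeing the data were both arrays of large spread left out, Eif2s3y as a term, and median centring with limma's own background. RefSeq tables of GRCm38.p6 gave promoters and chromosomes.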

Additional observations from a re-analysis of the deposited data

Results flagged for a closer look

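The HCA response differed between the genotypes for 4 transporters by the interaction term of limma, as knockout minus wild type on the log2 scale: -1.47 for Slc6a9, -1.27 for Slc1a5, -0.79 for Slc1a4 and -0.57 for Slc38a2. The wild-type responses behind them were 1.37, 1.01, 0.81 and 0.49, and the knockout responses -0.10, -0.26, 0.02 and -0.08.

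Single arrays stood apart from their group in 2 of 24 sets of values tested by Dixon's criterion, which chance passes in about 1 of 20. Slc6a9 in wild-type HCA replicate 4 was 10.85, where the other arrays of the group lay between 10.64 and 10.66. Slc38a1 in untreated knockout replicate 8 was 6.47, against 6.14 for the next array. Leaving out either array changed no call of its gene.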

How the results depend on the processing

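Of 1015 member tests under alternatives, 973 kept their direction and side of the threshold, 41 no longer passed, 1 newly passed, and the size of each Slc1a5 difference depended on the background correction as given above. No called difference changed sign. Counts of called members moved as follows. Median centring left 1 without HCA and 2 for the difference in response. Chips 1, 2 and 3, each fitted alone, left 1 each without HCA, where 30, 186 and 281 of all probes were called. Chip 2 alone and chip 3 alone each left 0 for the wild-type response, where 2 and 3 of all probes were called. Each also left 0 for the difference in response, where 0 of all probes were called. Fitted together, chips 2 and 3 left 4 and 3 for these 2 comparisons, against 148 and 27 of all probes. Median centring with limma's own background left 1 without HCA, 2 with HCA, 0 for the wild-type response and 0 for the difference in response. In the same order it called 17, 84, 5 and 3 of all probes, and the median of all probes itself lay at 0.34, -0.37 and 0.26 for the last 3. Sizes fell by over 1.5 times there for the wild-type responses of Slc6a9 (to 0.85), Slc1a4 (0.37), Slc1a5 (0.67) and Slc38a2 (0.05), the genotype differences with HCA of Slc1a4 (-0.84), Slc1a5 (-0.89) and Slc38a2 (-0.18), and the differences in response of Slc1a4 (-0.47) and Slc38a2 (-0.24). The cause was not tested. Leaving out 1 array gave 2 to 2 members without HCA, 4 to 5 with HCA, 4 to 4 for the wild-type response, 0 to 0 for the knockout response and 3 to 4 for the difference in response, and 0 to 0 for chip by genotype.

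Residuals of 12 same-numbered pairs, after terms for group and chip, correlated from -0.39 to 0.09, with 0 over 0.1. Those terms lower correlations within a chip, so these values cannot decide whether replicate numbers pair the samples. With replicate number as a block, 2, 4 and 3 members were called without HCA, with HCA and for the difference in response. Over all probes the block called 588, 1523 and 30 in the same order. The block could not be fitted to the HCA responses. Over all probes, median centring called 166 without HCA (against 1218), 439 with HCA (2126), 19 and 1 for the HCA responses of wild type and knockout (130 and 6) and 23 for the difference (51). Signal near background limits Slc1a5 and Slc38a1. A fit of only the groups compared was not run for the difference in response, which uses all groups.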

Other observations

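Among 8 tested carriers of the SLC1, SLC6, SLC16, SLC32 and SLC36 families, Slc32a1, the vesicular carrier of GABA and glycine, was lower in knockout without HCA (-0.21, adjusted p = 0.0329, limma) and with HCA (-0.52, adjusted p = 0.000365). The astrocytic glutamate transporter Slc1a3 was lower too (-0.43 and -0.50), and Slc6a17, a vesicular neutral amino acid carrier, was higher with HCA (0.33, adjusted p = 0.0114). HCA changed 0 of these 8 in either genotype by limma's adjusted p, with 3 in wild type and 1 in knockout at an unadjusted p under 0.05. Under median centring 0 of the 8 passed in either genotype comparison. Of 2 tested glycine receptor genes, Glra2 was higher in untreated knockout (0.26, adjusted p = 0.029, limma) and Glrb did not pass in any comparison. Under median centring neither passed without HCA.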
